A study of Mus musculus with 8 samples.

Results

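The genes described here encode matrix metalloproteinases (MMPs) and their tissue inhibitors (TIMPs), and their transcripts were measured in tumor-associated macrophages (TAMs) of WT and miR-21-/- mice. The members were 7 MMP genes (Mmp2, Mmp8, Mmp9, Mmp12, Mmp13, Mmp14 and Mmp19) and 3 TIMP genes (Timp1, Timp2 and Timp3), taken by symbol from a table of 53247 genes. All 10 were found, and 9 of them were among the 13850 genes with enough expression to be tested, with Timp3 left out.

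The TAMs came from subcutaneous tumors of LLC, the Lewis lung carcinoma line of C57BL/6 mice, 14 days after the line was implanted. The hosts were C57/BL6 mice aged 10 weeks, either WT (4 samples) or miR-21 null (4 samples, written miR-21-/- below), and the labels name no other treatment. The null allele was a germline deletion from a commercial line bred onto C57BL/6, so that every cell of the host lacked miR-21, whereas the implanted LLC cells were the same in both genotypes. Cells positive for CD45, CD11b, MHC II and F4/80 were sorted and sequenced as bulk mRNA. The labels number the samples as biological replicates but do not give the mice behind each, and miR-21-/- replicate 1 has a title with a pair of numbers that may mean a pool, so p-values measure the spread between these samples.

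MMPs are zinc-dependent endopeptidases that are made as inactive proenzymes and cleave collagens, gelatin, elastin and other proteins outside the cell. TIMPs bind the active site of MMPs and block it, so the balance of both is commonly used to describe how much matrix a tissue can degrade. Macrophages of tumors are a known source of several MMPs. miR-21 is a small RNA that lowers transcripts with sites for its seed, and the TIMP gene Timp3 and the MMP inhibitor gene Reck are widely cited as its targets.

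Each value is in CPM (counts per 1000000 reads), as the authors deposited it. The depth, estimated from the steps between low values, was 20.2 to 33.3 times 1000000 reads per sample. Genotypes were compared by limma across all 13850 genes as log2 fold changes of miR-21-/- over WT. Since 1 was added to each CPM before the log, changes of low genes are understated. The threshold required an adjusted p (Benjamini-Hochberg) of 0.005 or less together with a change of over 1.5-fold. Mir21a, the targeted gene, stood at 0.0001 CPM, the lowest value of the table, in every WT and miR-21-/- sample and could not check the genotype labels. Vmp1, named after its values were seen, has exons that span Mir21a on the same strand and was at 114.8 to 132.9 CPM in WT and 373.0 to 425.7 CPM in miR-21-/- samples, so this host gene separated the labelled genotypes. Over the tested genes as a whole the median log2 fold change was -0.10, and 400 genes passed as higher and 586 as lower. After rescaling by the median of ratios, which moved this median to -0.0030, 520 genes passed as higher and 350 as lower, so the share of higher genes went from 40.6% to 59.8%. The macrophage identity of the sorted cells was checked with 12 marker genes, all of which were tested, and their summed level was 11180 to 12680 CPM in WT and 10640 to 12170 CPM in miR-21-/- samples. Of the 12, 1 passed the threshold, Fcgr1 as higher, and 8 had a log2 fold change below 0.

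Mmp13 and Mmp19 rose in miR-21-/- TAMs and Mmp8 fell, whereas the other 6 tested members did not pass the threshold. These 3 genes are 33.3% of the 9 tested members, against 7.12% of all tested genes. Of all tested genes, 2.89% passed as higher, as 2 of the 9 members did, and 4.23% passed as lower, as 1 member did. The call of Mmp8 was lost in 5 of 8 fits that left out a sample and under both other scalings. The values of the 4 WT and 4 miR-21-/- samples did not overlap for Mmp13, Mmp19, Mmp8 and Mmp2, which is 44.4% of the tested members, against 35.1% of all tested genes. The median log2 fold change of the 9 members was 0.18, with 5 genes above 0 and 4 below.

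**Figure D1:**
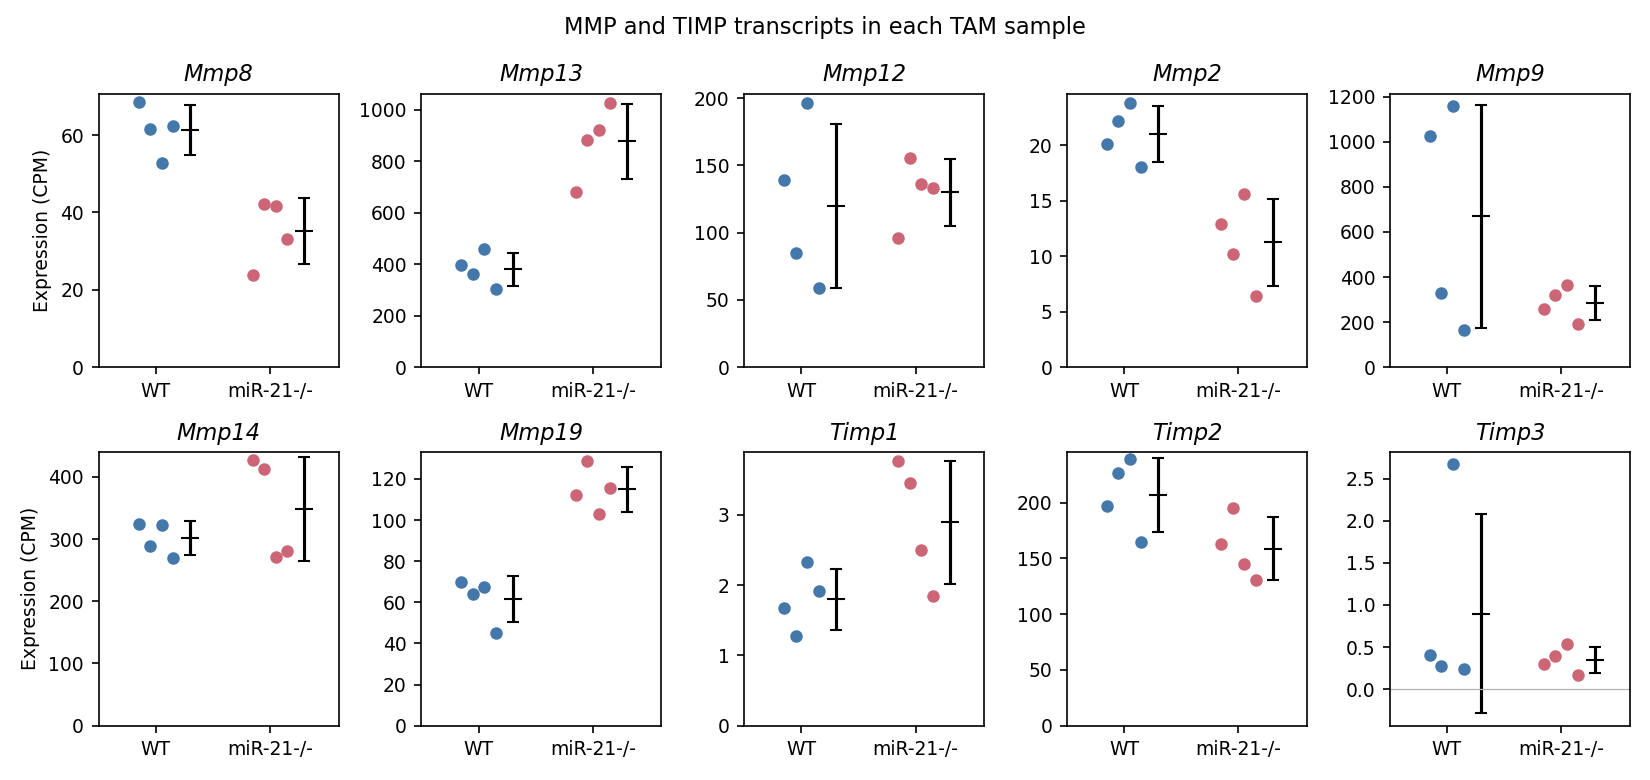
Expression in CPM (vertical axis, linear, each panel with its own scale) of the 10 MMP and TIMP genes in each of 4 WT (blue) and 4 miR-21-/- (red) TAM samples, with the mean and SD as a bar beside the points. Mmp13 and Mmp19 were higher in every miR-21-/- sample than in any WT sample, Mmp8 and Mmp2 were lower in every one, and the WT values of Mmp9 ranged from 166.4 to 1158 CPM.

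The collagenases were examined first, since they cut the intact triple helix of fibrillar collagen. Mmp13 encodes collagenase 3, a main interstitial collagenase of rodents, and lies on chromosome 9 from 7272514 to 7283331 on the plus strand of mm10, the build of all gene coordinates here. In WT samples 1 to 4, Mmp13 stood at 396.4, 362.3, 457.6 and 303.5 CPM, and in miR-21-/- samples 1 to 4 at 680.6, 881.4, 919.7 and 1027 CPM. The lowest miR-21-/- sample therefore lay above the highest WT sample. WT TAMs had a mean of 380.0 ± 64.4 CPM and miR-21-/- TAMs one of 877.3 ± 145.0 CPM (SD, n = 4 each), 2.31 times as high. On the log2 scale the change was 1.21 (standard error 0.14, 95% interval 0.88 to 1.53, adjusted p = 0.000279 from limma). Leaving out each sample in turn gave log2 fold changes of 1.10 to 1.32, and Mmp13 passed the threshold in each of these fits.

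Mmp8, which encodes the collagenase first described in neutrophils, lies in the same gene cluster (chromosome 9, 7558456 to 7568485, plus strand) and moved in the opposite direction. Its values were 68.5, 61.6, 52.7 and 62.3 CPM in the WT samples and 23.9, 42.2, 41.6 and 33.1 CPM in the miR-21-/- samples. No miR-21-/- sample reached the lowest WT sample. From 61.3 ± 6.52 to 35.2 ± 8.58 CPM (SD, n = 4 each), the log2 fold change was -0.81 (standard error 0.16, 95% interval -1.17 to -0.45, adjusted p = 0.00379 from limma). This adjusted p lay near the limit of 0.005, and Mmp8 no longer passed when WT replicate 1, 2, 3 or 4 or miR-21-/- replicate 4 was left out (limma adjusted p = 0.0116, 0.0121, 0.00672, 0.00821 and 0.0106). Its log2 fold change stayed between -0.91 and -0.64 in all fits that left out a sample.

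The cluster on chromosome 9 holds 10 MMP genes, and 3 of them are members (Mmp13, Mmp12 and Mmp8). Between Mmp12 and Mmp8 lie Mmp1b, Mmp3, Mmp1a and Mmp10. Of these, only Mmp3, which encodes stromelysin 1, was high enough to be tested, at 1.97 to 6.38 CPM in WT and 1.65 to 6.20 CPM in miR-21-/- samples (log2 fold change 0.02, limma adjusted p = 0.970). Mmp10 was at 0.370 to 0.897 CPM over all 8 samples, and Mmp1b at 0.0933 to 0.478 CPM. Mmp27, the neighbour of Mmp8, was at 12.9 to 15.7 CPM in WT and 8.36 to 15.7 CPM in miR-21-/- samples, and its log2 fold change of -0.32 did not pass (standard error 0.17, limma adjusted p = 0.164). Mmp20 and Mmp7, at the far end, were listed at 0.0001 CPM in all samples.

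**Figure D2:**
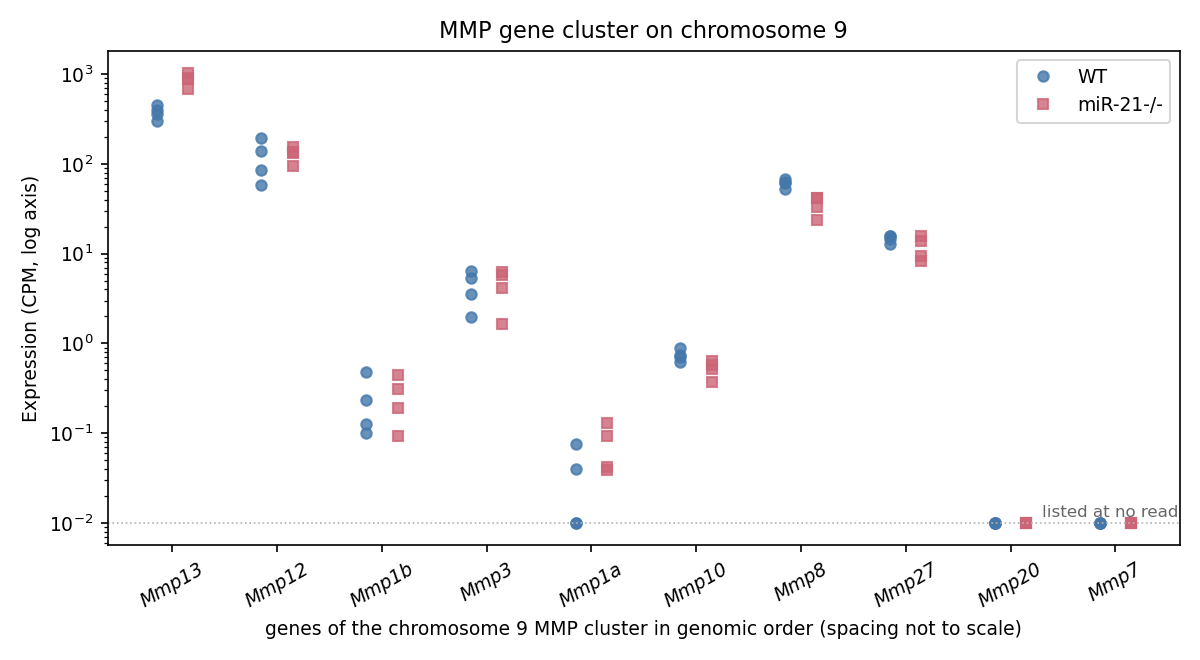
Expression in CPM (vertical axis, log scale) of the 10 MMP genes of the chromosome 9 cluster in genomic order (horizontal axis, not to scale), with circles for the 4 WT and squares for the 4 miR-21-/- samples and values at 0.0001 CPM drawn on the dotted line. Mmp13 separates the genotypes upward, Mmp8 separates them downward, and Mmp20 and Mmp7 lie on the dotted line throughout.

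The start regions of the 3 members of this cluster are shown because they lie close together and differed in direction. They are RefSeq promoter windows of build GRCm38.p6, from 250 bases before to 50 after a start, and 7 of the 10 members had one or more such windows (Mmp8, Mmp12, Mmp13, Mmp14, Timp1, Timp2 and Timp3), 8 in all. Capitals mark the AP-1 motif, searched as TGANTCA on both strands, to which Fos and Jun proteins bind.
Mmp13, chr9:7272264-7272563, plus strand: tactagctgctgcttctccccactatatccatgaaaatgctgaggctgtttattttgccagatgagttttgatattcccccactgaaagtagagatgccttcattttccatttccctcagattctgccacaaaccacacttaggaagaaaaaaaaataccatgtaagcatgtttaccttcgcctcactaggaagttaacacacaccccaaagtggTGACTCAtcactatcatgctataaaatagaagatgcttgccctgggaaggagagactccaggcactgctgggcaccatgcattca
Mmp12, chr9:7347124-7347423, plus strand, the second of 2 Mmp12 windows: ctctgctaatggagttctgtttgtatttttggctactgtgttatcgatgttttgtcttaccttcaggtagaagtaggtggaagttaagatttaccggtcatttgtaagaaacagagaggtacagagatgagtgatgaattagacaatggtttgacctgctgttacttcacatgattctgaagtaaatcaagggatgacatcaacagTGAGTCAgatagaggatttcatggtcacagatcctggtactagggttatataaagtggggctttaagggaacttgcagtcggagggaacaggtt
Mmp8, chr9:7558179-7558478, plus strand: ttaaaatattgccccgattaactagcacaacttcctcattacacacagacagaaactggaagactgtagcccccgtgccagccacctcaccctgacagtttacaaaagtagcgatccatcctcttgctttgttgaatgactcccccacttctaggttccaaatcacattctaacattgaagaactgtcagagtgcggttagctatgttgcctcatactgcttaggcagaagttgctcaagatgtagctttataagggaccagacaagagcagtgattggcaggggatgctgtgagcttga

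The Mmp13 window held TGACTCA at position -35 from the start, and the second Mmp12 window held TGAGTCA at position -44. The Mmp8 window, the other Mmp12 window and the windows of Mmp14, Timp1, Timp2 and Timp3 did not hold these letters. The motif TGANTCA was in 7.81% of all 32851 RefSeq windows of this length. The letters TATAAA of the TATA box motif were in the Mmp13 window at position -16 and in the second Mmp12 window at position 4, after the start. The Mmp8 window held only the reverse complement TTTATA, at position -3. One or the other was in 13.6% of all windows. These matches are letters in a window and are not measured sites.

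Among the gelatinases, which degrade denatured collagen and basement membrane collagen, Mmp2 (gelatinase A, chromosome 8, 92827291 to 92853420, plus strand) was low in TAMs. It stood at 20.1, 22.2, 23.8 and 18.0 CPM in WT and at 12.9, 10.2, 15.6 and 6.42 CPM in miR-21-/- samples. The groups did not overlap, with the highest miR-21-/- sample below the lowest WT sample. A log2 fold change of -0.90 (standard error 0.21, 95% interval -1.37 to -0.43) nevertheless missed the threshold (limma adjusted p = 0.00868). It passed when miR-21-/- replicate 3, the highest of its group, was left out (log2 fold change -1.07, limma adjusted p = 0.00423).

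Mmp9 (gelatinase B, chromosome 2, 164940780 to 164955850, plus strand) was the tested member with the largest standard error (0.54 on the log2 scale). Its WT values were 1025, 330.1, 1158 and 166.4 CPM, and its miR-21-/- values were 259.6, 318.1, 365.7 and 192.1 CPM. WT replicates 1 and 3 lay above every miR-21-/- sample, while WT replicate 4 lay below every one. The means of 669.8 ± 494.3 and 283.9 ± 75.0 CPM (SD, n = 4 each) gave a log2 fold change of -0.87 with a 95% interval of -2.07 to 0.33, which did not pass (limma adjusted p = 0.233). Without WT replicate 4 the log2 fold change was -1.40, and without WT replicate 3 it was -0.47.

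Mmp12 encodes macrophage elastase, an elastin-degrading MMP typical of macrophages, and lies on chromosome 9 from 7344381 to 7369499 on the plus strand. It stood at 139.1, 84.7, 196.5 and 58.7 CPM in WT and at 96.0, 155.4, 136.2 and 132.9 CPM in miR-21-/- samples. The WT samples lay on both sides of the miR-21-/- samples. Its log2 fold change of 0.24 (95% interval -0.46 to 0.95, limma adjusted p = 0.578) did not pass, and without WT replicate 4 it was -0.05. Mmp12 shares 157 exonic bases with Mmp1b on the opposite strand, and Mmp1b did not exceed 0.478 CPM.

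Mmp14 encodes MT1-MMP, a membrane-anchored protease that activates the proenzyme of MMP-2 together with TIMP-2 (chromosome 14, 54431612 to 54445364, plus strand). It was at 323.8, 289.3, 323.4 and 269.1 CPM in WT and at 427.5, 412.9, 270.8 and 281.5 CPM in miR-21-/- samples. miR-21-/- replicates 1 and 2 were above all WT samples, and the other 2 were within the WT range. The log2 fold change was 0.18 (95% interval -0.15 to 0.51, limma adjusted p = 0.377).

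Mmp19, a secreted MMP that cleaves basement membrane proteins, lies on chromosome 10 from 128790910 to 128800824 on the plus strand. It was at 69.7, 64.3, 67.6 and 45.0 CPM in WT and at 112, 128.9, 102.9 and 115.7 CPM in miR-21-/- samples. Every miR-21-/- sample was above every WT sample, and WT replicate 4 was the lowest of all. From 61.6 ± 11.3 to 114.9 ± 10.8 CPM (SD, n = 4 each), the log2 fold change was 0.90 (standard error 0.13, 95% interval 0.62 to 1.19, adjusted p = 0.000701 from limma). It passed in every fit that left out a sample, with log2 fold changes of 0.76 to 0.97. Mmp19 shares 789 exonic bases with Tmem198b on the opposite strand, and whether the counting used strand is not given in the sources used here. Tmem198b was at 15.03 to 18.4 CPM in WT and at 9.17 to 10.5 CPM in miR-21-/- samples and changed in the other direction (log2 fold change -0.68, limma adjusted p = 0.000294).

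**Figure D3:**
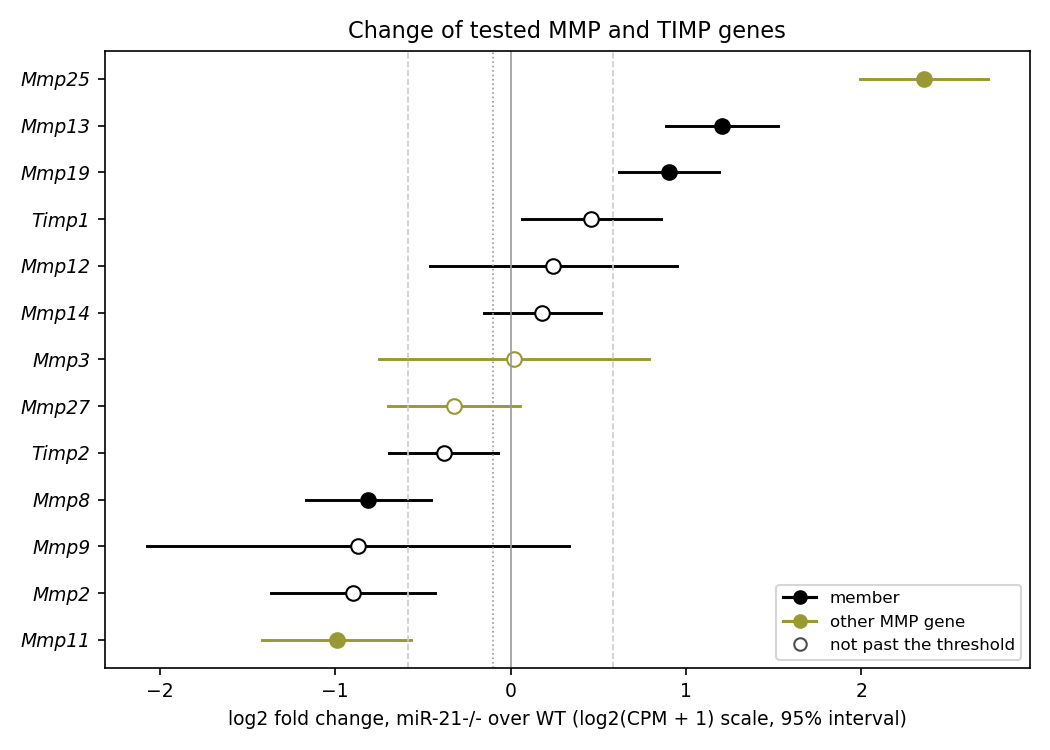
Log2 fold change of miR-21-/- over WT (horizontal axis, log2(CPM + 1) scale, with 95% intervals from limma) for the 9 tested members (black) and the 4 other tested MMP genes (olive), filled where past the threshold, with dashed lines at a fold of 1.5 and a dotted line at the median of all genes. Mmp25, Mmp13, Mmp19 and Timp1 lie on the higher side with intervals above 0, Mmp8, Mmp2, Mmp11 and Timp2 on the lower side with intervals below 0, and the interval of Mmp9 is the widest.

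None of the TIMP genes passed the threshold. Timp2, whose protein inhibits MMPs and also takes part in the activation of MMP-2, lies on chromosome 11 from 118301069 to 118355740 on the minus strand. It was at 196.9, 226.5, 239.0 and 164.7 CPM in WT and at 163.3, 195.6, 145.4 and 130.3 CPM in miR-21-/- samples. The ranges overlapped through WT replicate 4 and miR-21-/- replicate 2. The log2 fold change was -0.38 (standard error 0.14, 95% interval -0.69 to -0.07, limma adjusted p = 0.0551).

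Timp1, which encodes an inducible inhibitor that also binds the proenzyme of MMP-9, was low (chromosome X, 20870166 to 20874735, plus strand). It was at 1.67, 1.28, 2.33 and 1.91 CPM in WT, about 50, 37, 47 and 48 reads, and at 3.77, 3.45, 2.50 and 1.85 CPM in miR-21-/- samples, about 101, 115, 65 and 56 reads. miR-21-/- replicates 1 to 3 lay above all WT samples, and replicate 4 lay within their range. The log2 fold change was 0.46 (standard error 0.18, 95% interval 0.06 to 0.86, limma adjusted p = 0.0677). Timp1 lies inside Syn1, a synapsin gene on the opposite strand, with no exonic base in common. Syn1 was 15.1 to 21.9 CPM in WT and 21.6 to 26.6 CPM in miR-21-/- samples, with a log2 fold change of 0.47 that did not pass (limma adjusted p = 0.00981). The part of Syn1 reads in the Timp1 values was not tested.

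Timp3 encodes the TIMP that stays bound to the matrix and also inhibits the sheddase ADAM17 (chromosome 10, 86300372 to 86349506, plus strand). It was under the limit for testing, at 0.401, 0.277, 2.67 and 0.239 CPM in WT, about 12, 8, 54 and 6 reads, and at 0.299, 0.390, 0.538 and 0.165 CPM in miR-21-/- samples, about 8, 13, 14 and 5 reads. Apart from WT replicate 3, all samples of both genotypes lay between 0.165 and 0.538 CPM. The difference in mean log2(CPM + 1), miR-21-/- minus WT, was -0.33 (two-sided exact permutation test over 70 assignments, p = 0.686, where the smallest possible is 0.0286), and without WT replicate 3 it was 0.04 (exact p = 0.714). Timp3 shares 1733 exonic bases with Syn3 on the opposite strand, which was at 0.154 to 0.396 CPM. Timp4, the remaining TIMP gene, was listed at 0.0001 CPM in all 8 samples.

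Reck, which encodes a membrane-anchored inhibitor of MMPs and is no TIMP, was also under the limit for testing. It was at 0.268, 0.0694, 0.248 and 0.199 CPM in WT and at 0.336, 0.780, 0.538 and 0.0663 CPM in miR-21-/- samples, about 8, 2, 5 and 5 reads and 9, 26, 14 and 2 reads. The log2 difference was 0.24 (two-sided exact permutation test, p = 0.229). Without miR-21-/- replicate 4 it was 0.37 with the smallest p that 4 samples against 3 allow (exact p = 0.0286), and in the other 7 cases that left out a sample it was 0.12 to 0.26 (exact p = 0.229 to 0.457).

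The sequence of miR-21 and its matches in these genes are shown because both genotypes differ in it. The mature miRNA from RefSeq (build GRCm38.p6, chromosome 11, 86584120 to 86584141, minus strand) has its seed, bases 2 to 8, in capitals, and the sites below have the bases that pair with the seed or face its first base in capitals. Sites were sought in one annotated 3′ UTR per gene (GENCODE vM21), and their positions are counted from 1 at its first base.
miR-21a-5p: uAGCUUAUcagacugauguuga
Timp2, positions 1353 to 1359 of 2630: gcgtcttaaaaaATAAGCTgtcccaagg
Timp3, positions 2325 to 2332 of 3604: tttgagctttcaATAAGCTAtagctttg
Timp3, positions 2850 to 2855 of 3604: caactgagattcTAAGCTctctttgtct
Reck, positions 1042 to 1049 of 1441: ttacagtttgaaATAAGCTAttaatgta

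Timp3 and Reck each held a site of 8 bases, Timp3 also a site of 6 bases, and Timp2 a site of 7 bases. The 3′ UTRs of the 7 MMP members, 755 to 2134 bases long, and of Timp1, 103 bases long, held no site of 6 or more bases. Of 11449 tested genes with an annotated 3′ UTR (median 1176 bases), 2.24% held a site of 8 bases, 12.4% a site of 7 or 8 bases and 26.6% a site of 6 or more. Mmp13, Mmp19 and Mmp8, which passed the threshold, were thus without a site in the 3′ UTR searched. Of the genes with a site, only Timp2 entered the limma fit, and its log2 fold change was the -0.38 given above.

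Levels were compared between members only per kilobase of exon, since a longer transcript gives more reads. In WT TAMs the highest means were those of Mmp9 (189 ± 140 CPM per kilobase) and Mmp13 (142 ± 24.1, SD, n = 4 each), and their ranges overlapped. Timp2 (53.1) and Mmp14 (50.6) followed with overlapping ranges, then Mmp8 (25.3), then Mmp19 (17.4) and Mmp12 (16.6), which overlapped, then Mmp2 (6.24), Timp1 (2.02) and Timp3 (0.110). In miR-21-/- TAMs, Mmp13 was the highest at 328 ± 54.2 CPM per kilobase (SD, n = 4), and its lowest sample, 254.6, was above the highest Mmp9 sample, 103.3. Below it, the ranges of Mmp9 (80.2), Mmp14 (58.4), Timp2 (40.7) and Mmp19 (32.5) each overlapped the next in this order. Mmp12 (18.0) overlapped Mmp8 (14.5), Mmp2 (3.34) overlapped Timp1 (3.26), and Timp3 was last at 0.0427. Mmp8 stood above Mmp19 in WT and below it in miR-21-/- TAMs, in both cases with ranges that did not overlap.

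**Figure D4:**
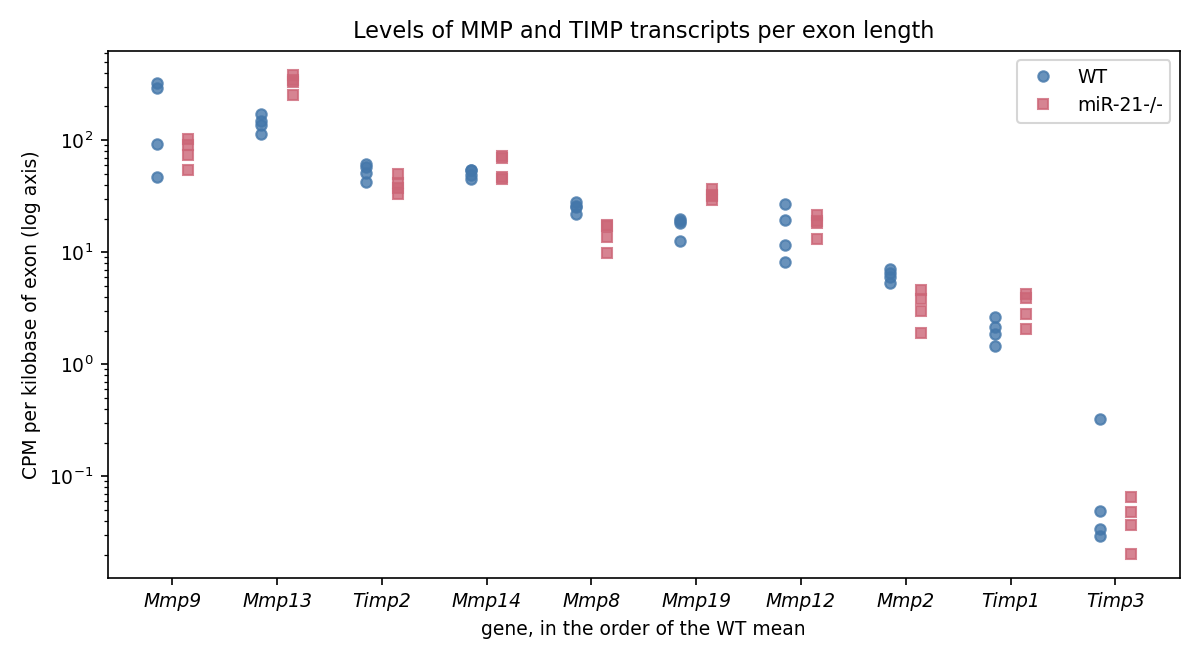
Level of each member in CPM per kilobase of exon (vertical axis, log scale), ordered by the WT mean, with circles for the 4 WT and squares for the 4 miR-21-/- samples. Mmp13 was the highest member in all miR-21-/- samples, Mmp9 spanned 47.0 to 327.1 in WT, and Timp3 was the lowest in both genotypes.

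The share of each gene in the summed level of the 7 MMP members was also taken per kilobase. Mmp13 made up 26.2% to 44.1% of this sum in WT and 55.6% to 69.6% in miR-21-/- samples, without overlap. Mmp9 made up 51.2%, 27.5%, 52.1% and 18.3% in WT samples 1 to 4 and 9.83% to 18.4% in miR-21-/- samples, so that only WT replicate 4 lay in the miR-21-/- range. The sum itself was 565.5, 339.2, 627.6 and 257.6 CPM per kilobase in WT and 458.3, 567.3, 562.6 and 552.5 in miR-21-/- samples, and these ranges overlapped. The ratio of the MMP sum to the sum of the 3 TIMPs was 10.8, 5.69, 9.76 and 5.80 in WT and 9.92, 10.5, 14.0 and 15.5 in miR-21-/- samples, which also overlapped. Timp2 held 90.7% to 97.5% of the TIMP sum in all samples.

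The lists of related genes and markers that follow were chosen with earlier results of these data known. Their counts are to be read beside all tested genes, of which 7.12% passed, 2.89% as higher and 4.23% as lower. The median log2 fold change of all tested genes was -0.10. Of 17 other MMP and TIMP genes, 4 were expressed enough to be tested. Mmp25, which encodes a membrane-anchored MMP known from leukocytes, rose from 11.6, 11.01, 11.6 and 12.8 CPM in WT to 43.2, 83.4, 69.4 and 68.0 CPM in miR-21-/- samples. With an adjusted p of 1.39e-05 from limma, its log2 fold change of 2.36 (standard error 0.16) exceeded that of any member. Mmp11, stromelysin 3, was at 4.07, 5.44, 4.11 and 2.39 CPM in WT and 1.605, 1.02, 1.95 and 1.32 CPM in miR-21-/- samples (log2 fold change -0.99, standard error 0.19, adjusted p = 0.00337 from limma), and this call was lost in 7 of 8 fits that left out a sample, all but that without WT replicate 4. Mmp3 and Mmp27, described above, did not pass. The median of the 4 was -0.15, and 2 of the 4 passed.

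Of 13 genes that activate MMPs or act with them at the cell surface, 12 were tested and 2 passed, with a median log2 fold change of 0.05. Sdc4, a syndecan that is itself shed by MMPs, rose from 319.7 ± 27.2 to 532.3 ± 32.6 CPM (SD with n = 4 each, a log2 fold change of 0.74, limma adjusted p = 0.000101). Lcn2, whose product forms a complex with MMP-9, was at 26.0 ± 6.83 and 12.1 ± 3.41 CPM (SD with n = 4 each, a log2 fold change of -1.04, limma adjusted p = 0.00444) and lost its call in 6 of 8 fits that left out a sample and under both other scalings.

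The plasminogen activator system produces plasmin, which cleaves several MMP proenzymes. Of 13 genes listed with it, 10 were tested, 4 passed and all 4 were higher, with a median of 0.43. These 4 are 40.0% of the tested list, against 7.12% of all tested genes, with 2.89% as higher. S100a10, a plasminogen receptor subunit, rose from 81.1 ± 13.2 to 157.5 ± 21.9 CPM (SD with n = 4 each, a log2 fold change of 0.95, limma adjusted p = 0.000511), and Plaur, the urokinase receptor gene, rose by 0.66 on the log2 scale (limma adjusted p = 0.00100). Thbs1, thrombospondin 1, and Serpinb2, an inhibitor of plasminogen activators, each rose by 1.12 on the log2 scale (limma adjusted p = 0.00328 and 0.00297). Between 1 and 4 of these genes passed when each sample was left out in turn. S100a10 passed in all 8 of these fits, whereas Plaur lost its call in 1, Thbs1 in 5 and Serpinb2 in 7. No sample had a value above 0.0001 CPM for Plg, plasminogen itself.

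Of 21 genes of ADAM and ADAMTS proteases and their iRhom partners, 14 were tested and 6 passed, 2 higher and 4 lower, with a median of -0.26. These 6 are 42.9% of the tested list, against 7.12% of all tested genes. Adam8, which encodes a leukocyte ADAM, rose from 723.4 ± 176.2 to 1378 ± 155.3 CPM (SD with n = 4 each, a log2 fold change of 0.96, limma adjusted p = 0.00187). Rhbdf2, an iRhom that guides ADAM17, was higher by 0.60 (limma adjusted p = 7.86e-05), whereas its paralog Rhbdf1 was lower at -1.14 (limma adjusted p = 0.000803). Adam19 had the largest change of this list, from 61.8 ± 32.7 to 11.3 ± 2.68 CPM (SD with n = 4 each, a log2 fold change of -2.25, limma adjusted p = 0.000548). Adamdec1 and Adam22 passed as lower with log2 fold changes of -1.83 and -1.36 (limma adjusted p = 0.00346 and 0.00401) at means under 7 CPM. When a sample was left out, 0 to 2 of the 14 genes passed as higher and 2 to 5 as lower, and after the median of ratios or quantile normalization 2 passed as higher and 2 as lower.

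Of 16 genes of matrix proteins, many of them MMP substrates, 14 were tested, 6 passed and all 6 were lower, with a median of -0.89. These 6 are 42.9% of the tested list, against 7.12% of all tested genes, with 4.23% as lower. Col4a1, a chain of basement membrane collagen, fell from 43.8 ± 9.17 to 15.9 ± 4.00 CPM (SD with n = 4 each, a log2 fold change of -1.42, limma adjusted p = 0.000513) and passed in each fit that left out a sample. Col3a1 and Col1a1, fibrillar collagens, had log2 fold changes of -2.51 and -2.29 (limma adjusted p = 0.00344 and 0.00464). Col4a2, Hspg2 and Sparc also passed, at -1.30, -1.14 and -1.01 (limma adjusted p = 0.00211, 0.00342 and 0.00227). When a sample was left out, 1 to 4 of the 14 genes passed, and after the median of ratios or quantile normalization 2 passed.

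Fos and Jun, which form AP-1 and are named here after their values were seen, were at 389.1 to 727.4 and 252.8 to 470.3 CPM in WT and at 386.7 to 461.6 and 228.8 to 299.9 CPM in miR-21-/- samples. Their log2 fold changes of -0.52 and -0.49 did not pass (limma adjusted p = 0.0418 and 0.0462).

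**Figure D5:**
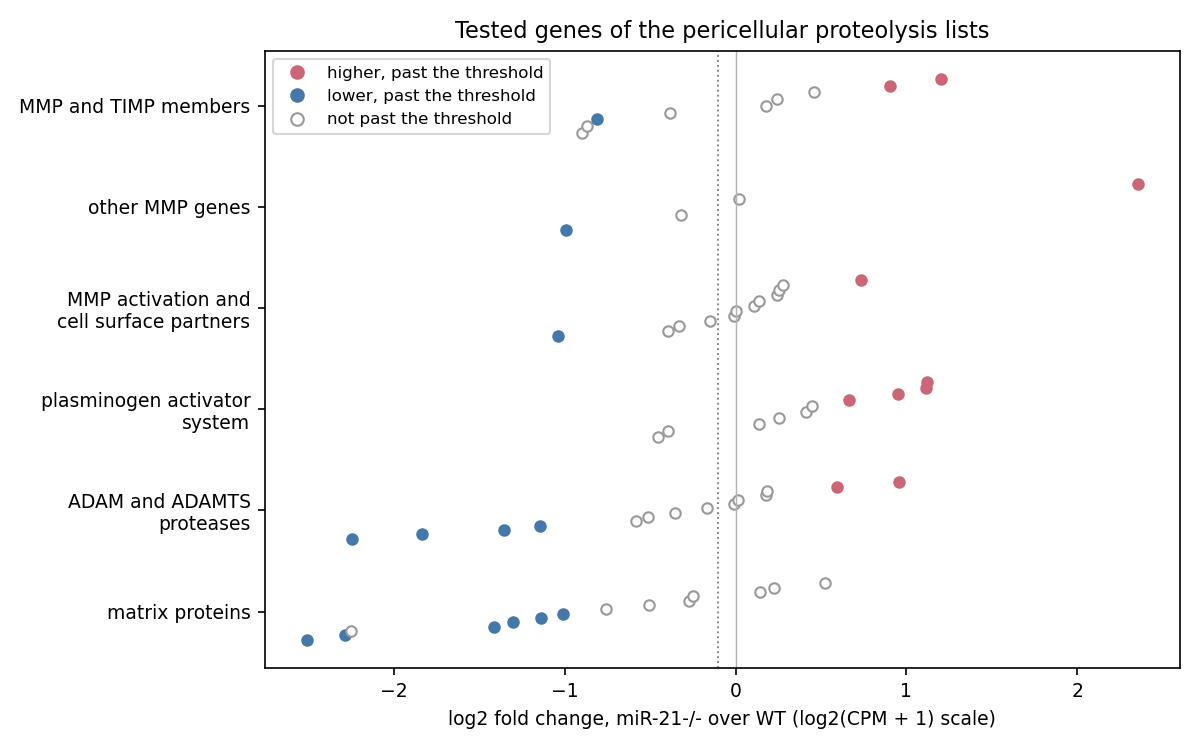
Log2 fold change (horizontal axis, log2(CPM + 1) scale) of each tested gene of the members and of 5 lists of related genes (rows), red where higher and blue where lower past the threshold and open where not, with a dotted line at the median of all tested genes. The 4 genes of the plasminogen activator list past the threshold are all on the higher side, and the 6 of the matrix list are all on the lower side.

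Markers of other cells that make MMPs were read beside these results. Of 14 neutrophil markers, 11 were tested and only Mmp25 passed, as higher, while the median was -0.36. Their summed level was 822 to 1231 CPM in WT and 676.4 to 860.5 CPM in miR-21-/- samples. S100a9, the highest of them, was 483.0, 398.2, 249.0 and 345.8 CPM in WT and 208.1, 270.0, 276.0 and 192.9 CPM in miR-21-/- samples (log2 fold change -0.62, limma adjusted p = 0.0292). Ly6g, which defines neutrophils, was at 1.09 to 2.74 CPM in WT and 1.52 to 3.17 CPM in miR-21-/- samples. Their part in the lower Mmp8 values was not tested.

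Of 11 fibroblast markers, 10 were tested and 5 passed, 4 of them lower and Pdpn higher, with a median of -1.13. The number lower was 2 to 5 when a sample was left out and 2 after the median of ratios or quantile normalization, while Pdgfra passed in all of these fits. Their summed level was 75.2 to 161.5 CPM in WT and 93.2 to 210.2 CPM in miR-21-/- samples. Without Pdpn, the marker that rose and was left out after its values were seen, the sum was 72.1 to 154.8 CPM in WT and 19.3 to 52.2 CPM in miR-21-/- samples. Of the 4 lower markers, Col1a1 and Col3a1 are also counted in the matrix list, so both lists rest in part on the same genes. Pdgfra was at 10.5 to 21.1 CPM in WT and 2.08 to 4.61 CPM in miR-21-/- samples. Pdpn, which had the highest mean of the list over all 8 samples but not in WT, is also made by macrophages and went from 9.89 ± 5.91 to 111.7 ± 37.3 CPM (SD with n = 4 each, a log2 fold change of 3.51, limma adjusted p = 0.000230). In bulk samples, fewer cells of a type and less RNA per cell cannot be told apart. The part of fibroblast RNA in the lower collagen and Mmp2 values was not tested.

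The remaining marker lists were small beside the macrophage list. Summed levels in WT and miR-21-/- samples were 153.7 to 305.2 and 203.4 to 292.2 CPM for 8 endothelial markers (highest Pecam1), and 18.8 to 24.8 and 12.7 to 17.9 CPM for 8 epithelial markers (highest Krt8, with Krt5 and Krt14 at 0.0001 CPM in all samples). They were 32.3 to 48.3 and 21.8 to 68.3 CPM for 10 T or NK cell markers (highest Gzmb, with 1 of 8 tested, Cd4, past the threshold as lower), and 12.4 to 21.1 and 15.8 to 39.1 CPM for 8 dendritic cell markers (highest Xcr1). The call of Cd4 was lost in 4 of 8 fits that left out a sample. The 7 monocyte markers, with F13a1 the highest, summed to 965.1 to 1744 CPM in WT and 851.5 to 1458 CPM in miR-21-/- samples, and none passed. The 8 B cell markers, with Ighm the highest, summed to 58.1 to 99.1 CPM in WT and 15.5 to 27.1 CPM in miR-21-/- samples, and 2 of the 3 tested passed as lower.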

How the data were processed

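mRNA libraries (Kapa mRNA Hyper prep, RNA from RNeasy Micro columns) of 4 WT and 4 miR-21-/- TAM samples were analysed, grouped by the genotype in the labels. The authors deposited 1 table of CPM values, each raised by 0.0001. The submitters' processing notes name STAR, Partek 7.0 and mm10. The counting rule and the use of strand are not given in the sources used here. Starts matched GENCODE vM21 for 97.1% of the symbols found in both. All 37 mitochondrial genes were listed at 0.0001 in all samples.

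The CPM values of a sample summed to 788099 to 807758. From the most frequent low value of each sample, 1 read was estimated to be worth 0.0300 to 0.0495 CPM. Of the values up to 20 reads, 73.2% to 74.1% were whole within 0.02 reads, so counts were not recovered and no count test was run. The number of samples, and for the lowest genes that of reads, limited the precision.

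log2(CPM + 1) values, computed from the deposited CPM, entered lmFit and eBayes (with trend) of limma 3.58.1 under R 4.3.3. Genes entered if their mean reached 1 per 1000000 of the column totals, and p-values were adjusted over all of them (Benjamini-Hochberg). The limits of 0.005 and 1.5 are those that the paper's Results give for its differentially expressed genes. Members under this filter were compared with a two-sided exact permutation test. The script was tested on simulated data. Motifs and seed sites were matched as exact letters, and figures were drawn with matplotlib 3.10.9.

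The members and lists were chosen with earlier results of these data known. Named are all members, Reck, Timp4, Mir21a, list genes past the threshold (up to 5 with the largest change, otherwise the highest and lowest), the highest marker of each cell type and markers at 0. Other genes, among them Mmp3, Mmp27, Mmp10, Mmp1b, Sparc, Rhbdf2, Ly6g, Pdgfra, Plg and overlapping genes, were named after their values were seen. Not every gene this rule picks is reported here. Alternatives were other pseudocounts, filters, scalings, sample weights, thresholds, eBayes without trend, the replicate number as a block and leaving out each sample.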

Additional observations from a re-analysis of the deposited data

Results flagged for a closer look

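In 5 of 80 groups of 4 samples (40 named genes in 2 genotypes), 1 sample lay far from the other 3. The test used, Dixon's ratio of the gap to the range, marks about 1 group in 20 by chance. Timp3 was 2.67 CPM in WT replicate 3 and 0.239 to 0.401 CPM in the other WT samples. In the same sample Acta1 was at 6.74, Ctgf at 3.86, Actc1 at 1.89 and Myl9 at 1.34 CPM, whereas none of these muscle or matrix genes, named after their values were seen, exceeded 0.279 CPM in any other sample. Their part in the Timp3 value was not tested. Rhbdf1 was 1.26 CPM in miR-21-/- replicate 4 against 2.05 to 2.11 CPM in the others of its group. Col3a1 was 18.3 CPM in miR-21-/- replicate 2 against 2.65 to 3.76 CPM. Itgam, the highest macrophage marker, was 2318 CPM in WT replicate 4 against 1957 to 1973 CPM, and Gzmb was 14.6 CPM in the same sample against 5.30 to 6.83 CPM.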

How the results depend on the processing

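Mmp13 and Mmp19 passed the threshold in all 9 other settings and all 8 fits that left out a sample, with limma adjusted p between 8.94e-05 and 0.00206 for Mmp13 and between 0.000135 and 0.00399 for Mmp19. Mmp8 kept its direction but missed it without the filter (adjusted p = 0.0161), after the median of ratios (0.00888) or quantile normalization (0.00671), without the trend (0.00728), with the replicate number as a block (0.00955) and in 5 of the 8 fits that left out a sample. Mmp2 passed with the block (0.00288), without miR-21-/- replicate 3 and at an adjusted p limit of 0.05 with no fold limit. Members past the threshold numbered 2 to 4. Genes past the threshold numbered 452 with a pseudocount of 10, 589 without the filter, 4982 with an adjusted p at or under 0.05 and no fold limit, and 685 to 1001 when a sample was left out. Signs changed for Mmp12 (-0.046 to 0.53 when a sample was left out, negative without WT replicate 4), Timp3 (-0.48 to 0.040, positive without WT replicate 3) and Itgam (0.046 after the median of ratios). After quantile normalization, 491 of 828 genes were higher (59.3%). The replicate numbers in the descriptions of the labels, which differ from those in the titles of the miR-21-/- samples, did not pair the samples (correlation of deviations 0.08, -0.11, -0.14 and 0.22), and the replicate block gave 922 genes. The causes were not tested. Timp1 rested on about 37 to 115 reads per sample, Timp3 on about 5 to 54 and Reck on about 2 to 26.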

Other observations

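Genes of bone-resorbing and multinucleated macrophages, which are known to make Mmp9, were read beside it and are named after their values were seen. Ctsk, a collagen-degrading cathepsin, was at 60.8, 10.4, 42.2 and 14.1 CPM in WT samples 1 to 4, and Dcstamp, a cell fusion gene, at 2.51, 0.658, 2.67 and 0.916 CPM. For both genes, as for Mmp9, WT replicates 1 and 3 held the highest values. Among the WT samples, replicates 1 and 3 were also the highest for Mmp12, Mmp13, Mmp14, Mmp19 and Timp3. They were not for Mmp2, Mmp8, Timp1 and Timp2. Thbs1 (1540, 913.8, 1531 and 932.9 CPM) and Adam8 (883.1, 511.4, 852.7 and 646.2 CPM) had this order in WT too. The order was thus not particular to Mmp9 and the genes of this paragraph. In miR-21-/- samples Ctsk was at 4.25, 15.3, 4.68 and 3.84 CPM and Dcstamp at 0.970, 0.570, 0.461 and 0.298 CPM, and neither gene passed the threshold (limma adjusted p = 0.0234 for Ctsk and 0.0616 for Dcstamp). Atp6v0d2, a proton pump subunit, was highest in replicates 1 and 3 among the WT samples only (18.8, 6.61, 18.9 and 5.30 CPM). It stood at 16.2, 20.2, 17.3 and 13.1 CPM in miR-21-/- samples (log2 fold change 0.58, limma adjusted p = 0.233). Slc9b2 was at 3.64, 0.693, 2.57 and 0.677 CPM in WT and at most 0.480 CPM in miR-21-/- samples and did not pass (limma adjusted p = 0.0160), and Oscar, under the limit for testing, was at 0.312 to 1.04 CPM in WT and at most 0.0900 CPM in miR-21-/- samples. Acp5, tartrate-resistant acid phosphatase, fell from 331.1 ± 21.5 to 181.1 ± 34.7 CPM (SD with n = 4 each, a log2 fold change of -0.89, limma adjusted p = 0.000672). Nfatc1, a transcription factor of osteoclasts, fell from 110.1 ± 6.71 to 64.7 ± 2.41 CPM (SD with n = 4 each, a log2 fold change of -0.76, limma adjusted p = 1.80e-05). Ocstamp, another fusion gene, was at 45.2 to 61.1 CPM in WT and 54.4 to 102.5 CPM in miR-21-/- samples and did not pass (log2 fold change 0.59, limma adjusted p = 0.0212). Tnfrsf11a, Car2 and Itgb3 did not pass either, with log2 fold changes of -0.20, -0.37 and -0.15 (limma adjusted p = 0.0197, 0.0661 and 0.446). Calcr, the calcitonin receptor gene that marks osteoclasts, was listed at 0.0001 CPM in all 8 samples.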
